A study of Mus musculus with 20 samples.

Results

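B cells and T cells of the lymph node (LN) were compared with those of the spleen of the same Eµ-TCL1 mice by single-cell RNA-sequencing (scRNA-seq). Eµ-TCL1 mice, whose strain the labels give as C57BL/6N and the study's methods as C57BL/6J, carry a human TCL1 cDNA under an immunoglobulin heavy chain promoter and enhancer, which drive it in B cells, and a leukaemia arises in them that resembles human chronic lymphocytic leukaemia (CLL). The series holds 20 samples of unselected live cells taken when mice met early removal criteria, and 6 of them were compared here, the sub-mandibular LN and the spleen of 3 mice. The sample titles give the same animal for LN 1 and spleen 1, for LN 2 and spleen 2, and for LN 3 and spleen 4, and these are called mouse 1, mouse 2 and mouse 3. All 6 samples carry the TCL1 transgene and no other, none was treated, and the ages of these mice were not given in the sources used here. The same comparison was made in 4 Eµ-PRMT5/TCL1 mice (8 samples), which carry a human PRMT5 cDNA driven in B cells as well.

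Each captured RNA molecule carried a unique molecular identifier (UMI), so that copies of 1 molecule counted once. Barcodes with at least 1500 UMIs, at least 200 genes and at most 10% of UMIs from mitochondrial genes were kept. A B cell had at least 3 UMIs of Cd79a and Cd79b together, 0 UMIs of Cd3d, Cd3e and Cd3g, and fewer than 20 UMIs of Jchain, the joining chain of secreted antibodies. A T cell had at least 2 UMIs of the 3 Cd3 genes and at most 1 Cd79 UMI. This gave 22625 cells, 12441 B cells and 10184 T cells, of the 31239 barcodes kept in the 6 samples and the 97181 kept in all 20. The nodes of mice 1, 2 and 3 held 212, 1009 and 2157 B cells and 3313, 1628 and 812 T cells. The spleens held 905, 5533 and 2625 B cells and 2404, 876 and 1151 T cells. UMIs were summed over the B cells and over the T cells of each sample, and these sums are given as CPM, counts scaled to 1000000 UMIs per sum.

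CLL cells circulate between blood and lymphoid tissue, and the LN is known as the site where they meet antigen, T cells and stroma, receive B cell receptor and NF-κB signals, and divide. Signals through the receptor switch on immediate early genes within minutes, among them the EGR and NR4A transcription factors, together with the dual-specificity phosphatases that restrain them. T cells of mice and patients with this disease often carry effector and checkpoint genes, whose products are cytotoxic molecules and inhibitory receptors. The spleen differs from a node in that it filters blood and holds red pulp with erythroid cells, neutrophils and macrophages.

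Samples held 27024367 to 41663927 UMIs in the nodes and 46339181 to 55982586 UMIs in the spleens. Kept barcodes numbered 3345 to 4807 in the nodes and 5723 to 6907 in the spleens. The median depth of a B cell was 6160 to 8069 UMIs in the nodes and 5831 to 7418 in the spleens, and that of a T cell was 3834.5 to 5773 and 3699 to 4695.5. The summed level of 10 B cell markers was 6379 to 8668 CPM in B cell sums and 205 to 277 CPM in T cell sums, and that of 10 T cell markers was 3045 to 5410 CPM in T cell sums and 13.5 to 103 CPM in B cell sums. These markers include Cd79a and Cd79b, and Cd3d, Cd3e and Cd3g, which chose the cells. The choice of cells therefore fixed part of these levels. The 9 neutrophil markers differed between the samples. Their summed level in B cell sums was at 0 UMIs in the nodes of mice 1 and 2 (up to 1.99 and 0.319 CPM allowed by 3 counts), 840 CPM in the node of mouse 3, and 6123, 132 and 469 CPM in the spleens of mice 1, 2 and 3. In T cell sums it was 1.13, 0.401 and 439.7 CPM in the nodes and 7980.05, 4.69 and 884 CPM in the spleens. Pairs of these samples shared 18 to 71 kept barcodes, where 18.6 to 59.5 were expected from the number of possible barcodes, at most 1.20% of the smaller sample.

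The first question was whether node and spleen of 1 mouse held B and T cells in the same shares. T cells made up 80.6% (79.4 to 81.8), 48.7% (46.98 to 50.4) and 16.9% (15.9 to 17.98) of kept barcodes in the nodes of mice 1, 2 and 3, where the brackets give 95% Wilson intervals, which cover counting error only. They made up 37.9% (36.7 to 39.1), 12.7% (11.9 to 13.5) and 20.1% (19.1 to 21.2) in the spleens. The node held the larger share in mice 1 and 2 and the smaller in mouse 3, a mean difference of 25.2 percentage points ± 24.8 (SD, n = 3 mice; exact two-sided sign-flip permutation test, p = 0.5).

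The B cell share was smaller in the node in 3 of 3 mice. It was 5.16% (4.52 to 5.88), 30.2% (28.6 to 31.7) and 44.9% (43.5 to 46.3) in the nodes and 14.3% (13.4 to 15.1), 80.1% (79.1 to 81.03) and 45.9% (44.6 to 47.2) in the spleens. In mouse 3 the intervals of node and spleen overlapped, and in mice 1 and 2 they were far apart. Barcodes with 20 or more Jchain UMIs are not in this share. In mouse 3 the node minus spleen difference was -0.995 points for B cells and 8.09 points for these barcodes. The order in mouse 3 therefore depends on whether they are counted as B cells. The mean difference was -20.0 percentage points ± 26.2 (SD, n = 3), with p = 0.25 in the same exact permutation test, the smallest p that 3 pairs allow, and each of the 7 shares compared had 1.0 after Benjamini-Hochberg (BH) adjustment. Without mouse 2 the mean difference was -5.05 points.

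Barcodes with 20 or more Jchain UMIs, defined by this gene alone, were 0.973% (0.716 to 1.32), 8.91% (7.99 to 9.92) and 8.92% (8.15 to 9.76) of kept barcodes in the nodes and 1.94% (1.63 to 2.31), 0.0869% (0.0398 to 0.189) and 0.839% (0.633 to 1.11) in the spleens. The node share was above the spleen share in mice 2 and 3 and below it in mouse 1, and the mean difference was 5.31 points ± 5.45 (SD, n = 3; exact sign-flip permutation test, p = 0.5), or 8.45 points without mouse 1. Barcodes with both B and T transcripts, at least 2 Cd79 UMIs and at least 1 Cd3 UMI, made up 11.1%, 7.44% and 20.3% of kept barcodes in the nodes and 25.1%, 3.29% and 22.5% in the spleens, and they entered neither class.

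**Figure D1:**
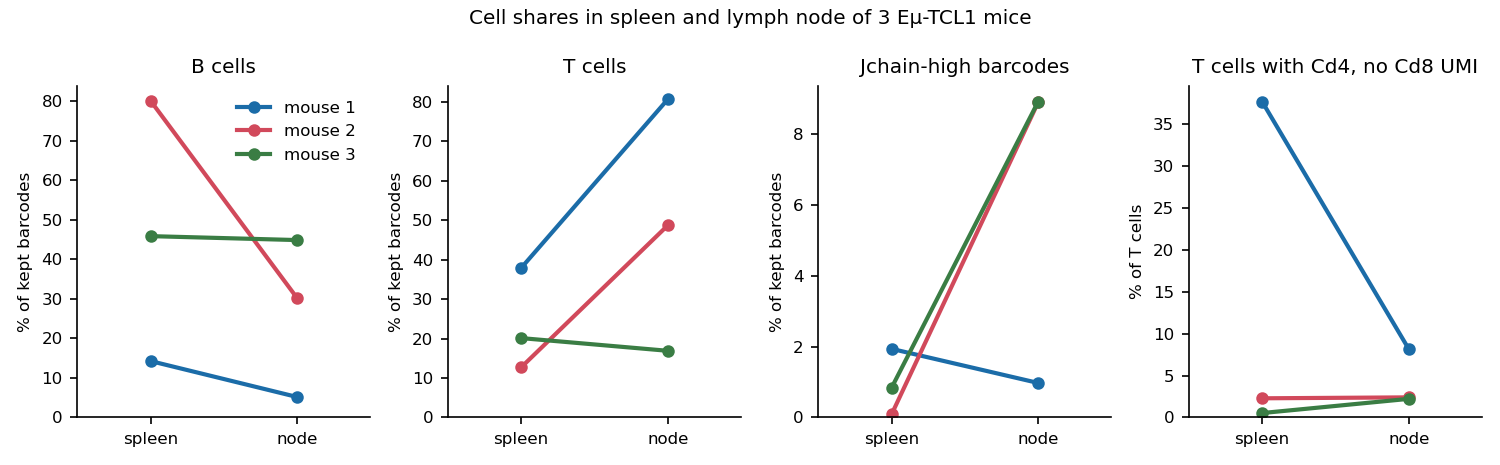
Share of cells in percent in the spleen and the node of 3 Eµ-TCL1 mice, with a line joining the tissues of 1 mouse and 1 colour per mouse. Panels show B cells, T cells and Jchain-high barcodes as a share of kept barcodes, and T cells with Cd4 and without Cd8 transcripts as a share of T cells. The B cell line goes down in 3 of 3 mice, from 80.1% to 30.2% in mouse 2, and the T cell line of mouse 3 goes the other way from those of mice 1 and 2.

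CD8 cells made up most of the T cells in 5 of the 6 samples, and the spleen of mouse 1 stood apart. Cells with Cd8a or Cd8b1 and no Cd4 UMI made up 83.97%, 90.2% and 80.5% of T cells in the nodes and 35.5%, 82.6% and 92.1% in the spleens. Cells with Cd4 and no Cd8 UMI made up 8.18%, 2.40% and 2.22% in the nodes and 37.7%, 2.28% and 0.521% in the spleens. The CD4 share of 37.7% in the spleen of mouse 1 was the highest of the 6, and the mean node minus spleen difference was -9.25 points ± 17.6 (SD, n = 3; exact sign-flip permutation test, p = 1.0). Without mouse 1 the mean CD4 difference was 0.904 points and the mean CD8 difference changed from 14.8 to -1.98 points.

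In each mouse 1 Ighv segment and 1 Igkv segment led in the B cells, and the same segments led in both tissues. Mouse 1 had Ighv1-55 with Igkv12-89, and mice 2 and 3 had Ighv12-3 with Igkv4-91, the pair of segments known from antibodies to phosphatidylcholine. A second light chain segment was read in both tissues of mouse 2 (Igkv5-39, 25.9% of Igkv UMIs in the node and 33.1% in the spleen) and of mouse 3 (Igkv17-127, 31.8% and 38.8%). Among B cells with at least 3 Ighv UMIs, those with at least 80% of them from the leading segment made up 68.9% (61.5 to 75.4), 94.4% (92.8 to 95.6) and 99.1% (98.6 to 99.4) in the nodes and 99.1% (98.1 to 99.6), 90.7% (89.9 to 91.5) and 98.6% (98.1 to 99.02) in the spleens. The node of mouse 1, with 167 such cells, was the lowest of the 6. The mean difference was -8.72 points ± 18.7 (SD, n = 3; exact sign-flip permutation test, p = 1.0), and it was 2.05 points without mouse 1. Ighv and Igkv segments have near-identical copies, so reads may be split among them. Junctions were not read here, so a shared segment does not show 1 rearrangement. The name leading clone below stands for cells of the leading Ighv segment.

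B cells differed more between mice than between tissues. Of the variance of log2 CPM over 5861 genes, 65.5% lay between mice, 15.4% between tissues and 19.01% in the rest. Divided by their degrees of freedom (2, 1 and 2) these were 32.8%, 15.4% and 9.51%. In T cells the shares over 5854 genes were 44.5%, 20.8% and 34.6%, or 22.3%, 20.8% and 17.3% per degree of freedom, which lie close together. The node minus spleen differences of 11244 genes in B cells were correlated at 0.281 between mice 1 and 2, 0.0322 between mice 1 and 3, and 0.115 between mice 2 and 3. In T cells the same correlations over 10374 genes were 0.470, -0.139 and -0.248. These are Pearson correlations across genes of the same samples, which are not independent replicates, and they are given as a description.

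In B cells 0 of 11244 genes (0%) passed BH adjusted p under 0.05 in the paired edgeR quasi-likelihood test. At an unadjusted p under 0.05 the test gave 849 genes (7.55%), 427 higher and 422 lower in the node, and the smallest adjusted p was 0.0600. DESeq2 with the same pairing called 92 genes, 56 higher and 36 lower, and limma on the mean per cell called 3. Over all genes tested, 1583 (14.1%) were higher in the node in 3 of 3 mice and 1805 (16.1%) were lower in 3 of 3, and the median log2 difference was -0.01. Read on CPM without further scaling, every node was above every spleen for 541 genes (4.81%) and below for 324 (2.88%). None of the genes described next is therefore a call of the main test, and not all of them shared 1 direction in 3 mice. Log2 differences with an SE are the size and error of the paired fit. Where 3 values are set against 3, the nodes of mice 1, 2 and 3 come first and their spleens second, and the direction within a mouse was read after scaling by the trimmed mean of M-values (TMM), so that it can differ from that of CPM that lie close. In these sums, more cells with a transcript and more transcript per cell cannot be told apart. In mouse 1 the leading clone made up 68.9% of assigned B cells in the node and 99.1% in the spleen. T cell markers summed to 103 CPM in the B cells of that node, against 16.1 and 13.5 CPM in the nodes of mice 2 and 3. The B cell differences of mouse 1 therefore compare unlike mixtures, and levels in the leading clone alone are not given by gene.

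The immediate early and receptor-induced genes had the highest median of the B cell lists. Of 28 genes tested, 11 were higher in the node in 3 of 3 mice and 1 was lower, beside the 14.1% and 16.1% over all genes, and the median log2 difference was 0.67 (0.25, 0.50 and 1.58 in mice 1, 2 and 3). It was lower without mouse 3 and ranged from 0.23 to 0.92 over the alternatives. At an unadjusted p under 0.05 were 12 of the 28, each higher in the node, and DESeq2 called 7 (Dusp2, Nr4a3, Egr2, Ccl4, Nr4a1, Dusp1 and Egr1). In the Eµ-PRMT5/TCL1 mice the median of the same genes was 0.44.

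Egr1, a zinc finger factor induced within minutes of receptor signalling, stood at 101, 490.4 and 286 CPM in the B cells of the nodes of mice 1, 2 and 3 and at 51.4, 118 and 29.8 CPM in those of their spleens. Each node was above its own spleen, but the groups overlapped, since the node of mouse 1 lay below the spleen of mouse 2. In free RNA Egr1 was at 53.0, 253 and 322 CPM in the nodes and 71.2, 88.7 and 55.1 CPM in the spleens, above the B cell level in 3 of 6 samples. The log2 difference was 2.06 ± 0.58 (SE, 3 pairs; adjusted p = 0.567, edgeR quasi-likelihood). When each cell was thinned to 1500 UMIs, 6.19%, 34.9% and 20.5% of node B cells and 5.10%, 11.4% and 3.04% of spleen B cells held an Egr1 UMI, beside 1.20% to 7.60% of T cells. Before thinning the share in mouse 1 did not differ beyond counting error, at 12.7% (8.90 to 17.9) in the node and 12.8% (10.8 to 15.2) in the spleen. Its relatives Egr2 and Egr3 were low in level and higher in every node: Egr2 at 17.2, 29.4 and 12.5 CPM in the nodes and 9.17, 3.90 and 0.771 CPM in the spleens, Egr3 at 16.6, 13.9 and 13.1 against 9.97, 7.16 and 1.45 CPM.

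Nr4a1 encodes NUR77, an orphan nuclear receptor used as a readout of antigen receptor signalling. Its level was 330.1, 176 and 465 CPM in the nodes and 152, 81.5 and 107 CPM in the spleens, with every node above every spleen and a log2 difference of 1.38 ± 0.28 (SE; adjusted p = 0.309, edgeR). In mouse 1 the share of B cells with an Nr4a1 UMI went the other way, 16.04% (11.7 to 21.6) in the node and 27.2% (24.4 to 30.2) in the spleen, so no order was read from it. Nr4a3, of the same family, was at 13.3, 2.76 and 9.30 against 3.72, 1.12 and 1.77 CPM, and its level in free RNA, taken from barcodes of 10 to 100 UMIs, was above that in B cells in all 6 samples. Free RNA of mice 2 and 3 held Xist, the RNA of the inactive X chromosome of females, at 6.85 and 13.6 CPM in the nodes. In their spleens it was at 51.4 and 43.2 CPM. The B and T cells of these mice held at most 0.0574 CPM of Xist. Whether free RNA came only from the same sample was not tested.

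Of the dual-specificity phosphatases in this list, which switch off MAP kinases, Dusp1 and Dusp2 were higher in each node. Dusp2 was at 145, 223 and 286 CPM in the nodes and 83.2, 97.01 and 95.1 CPM in the spleens (log2 1.14 ± 0.23, SE), and Dusp1 at 49.7, 40.8 and 89.1 against 21.9, 27.2 and 20 CPM (log2 1.25 ± 0.34), both with every node above every spleen. Dusp5 was at 84.8, 149.6 and 289 against 70.4, 91.7 and 176 CPM, and after scaling it was not higher in the node of mouse 1. Dusp1 and Dusp2 were higher in free RNA than in B cells in 6 of 6 samples, and the part of free RNA in these differences was not tested. Dusp4, a nuclear ERK phosphatase that belongs to no list used here and was named by its p-value, reached the smallest adjusted p (0.0600, edgeR). It stood at 41.1, 116 and 23.4 CPM in the nodes and 10.6, 38.1 and 6.80 CPM in the spleens, with each node above its spleen and a log2 difference of 1.71 ± 0.17 (SE). In free RNA Dusp4 averaged 70.7 CPM in the nodes and 21.1 CPM in the spleens, and it was above the B cell level in 4 of 6 samples.

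Ccl4, a chemokine that B cells release on receptor signalling and that draws T cells, was at 43.1, 1.91 and 13.8 CPM in the nodes and 0.532, 0.195 and 0.408 CPM in the spleens (log2 4.85 ± 0.53, SE; adjusted p = 0.0600, edgeR). In 5 of 6 samples its level was higher in free RNA than in B cells. Not every gene of the group followed: Fos, a subunit of AP-1, was at 50.4, 75.6 and 373 CPM in the nodes and 65.4, 152 and 99 CPM in the spleens, higher in the node of mouse 3 and lower in those of mice 1 and 2. Zfp36, which destabilises cytokine mRNAs, was at 182, 385 and 382 against 141, 258 and 146 CPM, higher in each node than in its own spleen.

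The promoters of Nr4a1 and Dusp1 are shown because both genes were higher in every node than in every spleen and their upstream bases carry TGACG, the core of the cAMP response element, a motif long known in immediate early genes. Both are RefSeq sequences on GRCm38.p6, 250 bases before the gene's start and read 5′ to 3′ on the gene's strand, with each TGACG or its reverse complement CGTCA in capitals (TGACGTCA holds both). Nr4a1 lies at chr15:101266596-101266845 on the plus strand and holds 4 such cores, and Dusp1 lies at chr17:26508473-26508722 on the minus strand and holds 3, of which 2 form the whole element TGACGTCA.
Nr4a1: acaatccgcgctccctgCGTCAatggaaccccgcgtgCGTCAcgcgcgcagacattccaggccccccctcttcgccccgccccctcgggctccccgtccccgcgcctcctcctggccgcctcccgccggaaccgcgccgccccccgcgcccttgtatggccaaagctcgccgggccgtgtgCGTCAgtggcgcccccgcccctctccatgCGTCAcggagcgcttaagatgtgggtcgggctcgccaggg
Dusp1: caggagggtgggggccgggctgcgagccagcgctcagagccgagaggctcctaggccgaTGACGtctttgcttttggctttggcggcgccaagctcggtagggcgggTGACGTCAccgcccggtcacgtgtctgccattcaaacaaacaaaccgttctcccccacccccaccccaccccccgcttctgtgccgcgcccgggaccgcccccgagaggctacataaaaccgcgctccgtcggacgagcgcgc
TGACG on either strand was found in 12 of the 22 promoters matched for this list (54.5%) and in 17.8% of all 32851 promoters of the same length, and TGACGTCA in 2 (9.09%) and in 1.55%. Dusp2 has neither motif in its 250 bases. A match describes these letters and is not a bound site.

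**Figure D2:**
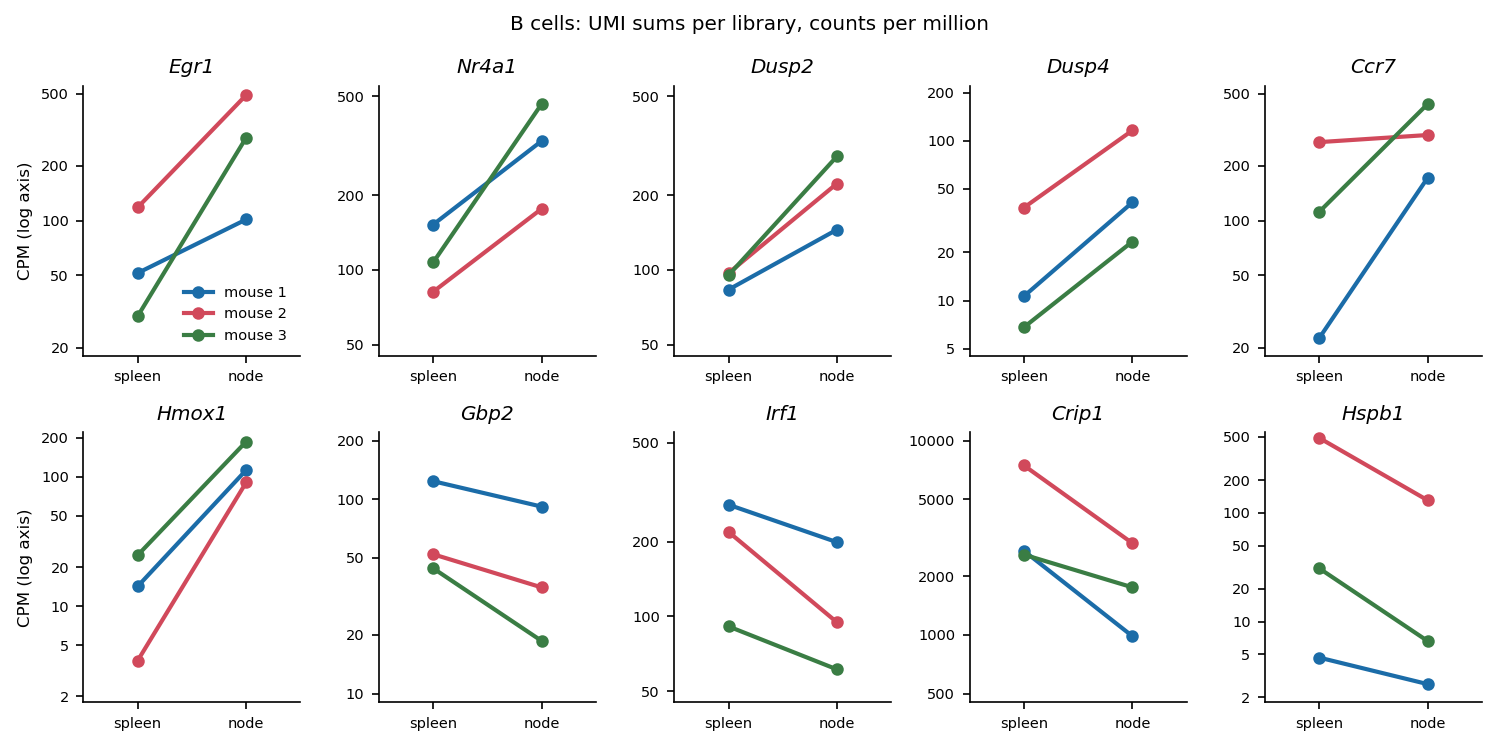
CPM of 10 genes in the UMI sums of B cells on a log axis, spleen at left and node at right, with 1 line per mouse. Egr1, Nr4a1, Dusp2, Dusp4, Ccr7 and Hmox1 go up from spleen to node in each mouse, and Gbp2, Irf1, Crip1 and Hspb1 go down. The height of a line differs between mice by more than its slope for several genes, for example Hspb1.

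NF-κB targets and feedback genes did not share 1 direction. Of 26 tested, 7 were higher in the node in 3 of 3 mice and 1 was lower, beside 14.1% and 16.1% over all genes, and the median was 0.06 (0.29, -0.24 and 0.24 in mice 1, 2 and 3). Those higher in each mouse included feedback inhibitors and survival genes. Tnfaip3, which encodes the deubiquitinase A20, was at 90.8, 43.7 and 53.6 CPM in the nodes and 28.6, 38.8 and 27.6 CPM in the spleens. Nfkbiz was at 51.04, 75.1 and 64.2 against 32.2, 44.4 and 26.5 CPM, and the NF-κB subunit gene Nfkb1 at 104, 66.3 and 90.8 against 62.5, 60.9 and 52.1 CPM. All 3 had every node above every spleen, and Tnfaip3 was higher in free RNA than in B cells in 6 of 6 samples.

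Bcl2a1b and Bcl2a1d, copies of the A1 survival gene, lay above the spleens in every node. Bcl2a1b was at 155, 192 and 147 CPM in the nodes and 85.2, 89.8 and 78.9 CPM in the spleens (log2 0.89 ± 0.17, SE), and Bcl2a1d at 71.6, 107 and 60.6 against 30.2, 55.5 and 32.2 CPM (log2 0.97 ± 0.15). The copies are near-identical, so the split of reads between them is uncertain. Bcl3, a nuclear IκB protein, was the gene lower in 3 of 3 mice, at 129.9, 155 and 114 against 152, 217 and 159.6 CPM.

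S phase genes were more often higher than lower in node B cells. Of 24 S phase genes, 13 were higher in the node in 3 of 3 mice and 0 were lower, beside 14.1% and 16.1% over all genes. Their median was 0.42 (0.02, 0.88 and 0.15 in mice 1, 2 and 3), and 0.13 without mouse 2. Of 24 G2/M genes 4 were higher and 0 lower, a share near the 14.1% over all genes, and the median of 0.38 rested on mouse 2 (-0.29, 1.5 and -0.06 in mice 1, 2 and 3, and -0.18 without mouse 2). The difference was widest in mouse 2, where Mki67, a marker of dividing cells, was at 21.1 CPM in the node and 6.33 CPM in the spleen, against 109 and 85.2 CPM in mouse 1 and 36.8 and 28.2 CPM in mouse 3. Pcna, the replication clamp, was at 111, 52.1 and 91.8 CPM in the nodes and 87.6, 42.1 and 46.3 CPM in the spleens. In the Eµ-PRMT5/TCL1 mice the S phase median was 0.06.

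The genes of receptors that guide B cells were mixed as a group (26 tested, 5 higher in 3 of 3 mice and 2 lower, beside 14.1% and 16.1% over all genes). Their median was 0.08 (0.03, -0.08 and 0.31 in mice 1, 2 and 3), and it was below 0 without mouse 3. The receptor for the node's own chemokines was among the higher. Ccr7, the receptor for CCL19 and CCL21 that brings lymphocytes into nodes, was at 172, 296 and 439 CPM in the nodes and 22.6, 270.1 and 112 CPM in the spleens (log2 1.60 ± 0.57, SE; adjusted p = 0.649, edgeR). The difference was wide in mice 1 and 3 and small in mouse 2, whose spleen was above the node of mouse 1. In mouse 1 the share of the leading clone differed between the tissues, and its part in the Ccr7 difference was not tested. The share of B cells with a Ccr7 UMI did not differ beyond counting error in mouse 2, at 59.96% (56.9 to 62.9) in the node and 60.3% (58.96 to 61.5) in the spleen, and 27.2% and 28.2% after thinning, so no order was read from it there. Ccr9, the receptor for CCL25, was at 1.33, 109 and 54.4 against 0.266, 57.9 and 5.08 CPM, and Gpr183, the oxysterol receptor that places B cells at the follicle's edge, at 25.9, 27.4 and 54.6 against 13.2, 25.2 and 25.8 CPM. In mouse 1 a Ccr9 UMI was read in 1 of 212 node B cells and 2 of 905 spleen B cells, so its order there is uncertain. Gpr18, another receptor of this list, was lower after scaling in 3 of 3 mice, at 74.2, 64.03 and 36.9 against 67.3, 108 and 82.8 CPM.

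Interferon-stimulated genes were more often lower than higher in node B cells. Of 24 tested, 9 were lower in the node in 3 of 3 mice and 2 were higher, beside 16.1% and 14.1% over all genes, with a median of -0.33 (-0.44, -0.32 and -0.49 in mice 1, 2 and 3) and of -0.16 in the Eµ-PRMT5/TCL1 mice. Irf1, a transcription factor induced by interferon, was at 199, 94.6 and 61.1 CPM in the nodes and 282, 219 and 91.1 CPM in the spleens (log2 -0.83 ± 0.19, SE; adjusted p = 0.324, edgeR). Mouse 1 was highest in both tissues and mouse 3 lowest, so the groups overlapped although each node was below its spleen. Gbp2, a guanylate-binding protein of the same response, was at 91.5, 35.1 and 18.7 against 124, 52.04 and 44.1 CPM and higher in free RNA than in B cells in 6 of 6 samples.

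Components of the B cell receptor pathway were also more often lower, with a median nearer to 0. Of 23 tested, 9 were lower in the node in 3 of 3 mice and 1 was higher, beside 16.1% and 14.1% over all genes, with a median of -0.19. Since Cd79a and Cd79b chose the B cells, their levels are no result, and without them 8 of 21 were lower, 1 was higher and the median was -0.17. Syk, the kinase that binds the receptor's signalling chains, was at 215, 143 and 145 CPM in the nodes and 234, 233 and 236 CPM in the spleens, with every node below every spleen. Pik3ap1, an adaptor for PI3 kinase, was the gene higher in the node, at 54.4, 32.9 and 87.1 against 30.8, 25.03 and 22.99 CPM, with 1 of 6 samples above B cells in free RNA.

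Among B cell identity factors 6 of 20 were lower in 3 of 3 mice and 1 was higher, beside the same 16.1% and 14.1% (median -0.16). Pou2f2, which encodes the octamer factor OCT2, was at 388, 362 and 260.2 CPM in the nodes and 418, 434 and 452 CPM in the spleens. Nfatc1, a calcium-controlled factor, was the one higher, at 403, 432 and 449 against 319, 306 and 188 CPM, and the nodes of both genes lay apart from the spleens.

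Nuclear genes of oxidative phosphorylation had 14 of 32 lower in 3 of 3 mice and 0 higher, beside 16.1% and 14.1% over all genes, with a small median of -0.21 (-0.47 and -0.11 in mice 1 and 2, and near 0 in mouse 3). In the Eµ-PRMT5/TCL1 mice their median was 0.48, on the other side of 0. Ribosomal protein genes had 8 of 32 lower and 1 higher, with a median of -0.15 that came from mouse 1 (-0.49 there, near 0 in mice 2 and 3, and 0.03 without mouse 1). Their Eµ-PRMT5/TCL1 median was 0.39. Other lists showed no common direction: glycolysis (14 tested, 2 higher and 1 lower in 3 of 3 mice), nucleolar genes (25, 4 and 0), MHC class II presentation (13, 1 and 0), heat shock (14, 1 and 1), plasma cell differentiation (17, 2 and 0), Bcl2 family survival (12, 3 and 1) and CLL surface genes (24, 2 and 4).

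Of the CLL surface and subset list, Il10 and Crip1 had the smallest p-values. Il10, the cytokine made by regulatory B cells and by CLL cells of these mice, was at 213, 34.7 and 88.4 CPM in the nodes and 91.98, 15.7 and 21.2 CPM in the spleens (log2 1.40 ± 0.25, SE; adjusted p = 0.236, edgeR). In mouse 1 the share of B cells with an Il10 UMI did not differ beyond counting error. It was 33.5% (27.5 to 40.1) in the node and 34.8% (31.8 to 38.0) in the spleen, and 13.9% and 10.9% after thinning. Crip1, a LIM domain protein, was at 986, 2966 and 1758 against 2707, 7446 and 2589.6 CPM (log2 -1.19 ± 0.27). A Crip1 UMI was read in 62.7%, 95.7% and 95.3% of node B cells and in 95.8%, 99.8% and 96.6% of spleen B cells. The wide gap in mouse 1 lay where the share of the leading clone differed between the tissues, and the part of this was not tested. Il10 was highest in mouse 1 and Crip1 in mouse 2 in both tissues, and the groups overlapped for both.

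By p-value, 24 genes were taken, in a list or not, 12 in each direction, with adjusted p from 0.0600 to 0.201 among the higher and 0.0600 to 0.236 among the lower. Hmox1, heme oxygenase 1, the enzyme that breaks down heme, had the widest difference of the higher genes, 113, 90.4 and 187 CPM in the nodes and 14.2, 3.79 and 24.8 CPM in the spleens (log2 3.42 ± 0.42, SE; adjusted p = 0.181, edgeR). Every node was above every spleen, and after thinning 7.02%, 7.64% and 11.6% of node B cells held a UMI of it against 1.41%, 0.53% and 2.38% of spleen B cells. Thinned shares of T cells were 0.220% to 2.502% over the 6 samples. The level of Hmox1 in free RNA was 64.0, 41.1 and 149 CPM in the nodes and 27.8, 9.69 and 53.0 CPM in the spleens, above that in B cells in each spleen and below it in each node, and its part in the difference was not tested. The unthinned shares in B cells were 21.2% (16.3 to 27.2), 23.9% (21.4 to 26.6) and 30.1% (28.2 to 32.1) in the nodes and 6.52% (5.09 to 8.32), 2.19% (1.83 to 2.61) and 10.6% (9.43 to 11.8) in the spleens.

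Fyn, a kinase of the SRC family best known from T cells, was at 24.5, 26.4 and 20.7 CPM in the nodes and 5.05, 7.61 and 10.3 CPM in the spleens, and its free RNA level was above that in B cells in 6 of 6 samples. Epcam, an adhesion protein, was at 102, 45.4 and 64.97 against 24.9, 9.48 and 35.8 CPM (free RNA above in 5 of 6 samples), and in the Eµ-PRMT5/TCL1 mice its log2 difference was 1.58. Pacsin1, an adaptor of endocytosis, was at 19.9, 37.3 and 27.7 against 3.99, 9.23 and 12.3 CPM, and Mreg, which takes part in organelle transport, at 15.9, 152 and 106 against 1.60, 50.6 and 12.6 CPM. Mreg overlapped between the tissues and the other 3 did not. The histone genes Hist1h2ap and Hist2h2aa1 (log2 1.95 ± 0.20 and 1.35 ± 0.19, SE) were also among the 12, and each has near-identical copies that make its reads uncertain.

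Among the lower genes, Hspb1, which encodes the small heat shock protein HSP27, was at 2.65, 130.5 and 6.60 CPM in the nodes and 4.65, 489 and 30.8 CPM in the spleens (log2 -1.93 ± 0.21, SE; adjusted p = 0.0600, edgeR). Its level was highest in mouse 2 in both tissues. In mouse 1 an Hspb1 UMI was read in 1.42% (0.482 to 4.08) of node B cells and 2.54% (1.70 to 3.78) of spleen B cells. These intervals overlap, so the order in mouse 1 is uncertain. Anxa2, a membrane-binding annexin, was at 5.97, 193 and 35.5 against 32.3, 471 and 206 CPM, again highest in mouse 2. Ankrd9 was at 14.6, 8.92 and 10.5 CPM in the nodes and 59.8, 29.97 and 24.2 CPM in the spleens, every node below every spleen, with no sample in which free RNA was above B cells and a log2 difference of -1.63 in the Eµ-PRMT5/TCL1 mice against -1.67 ± 0.25 (SE) here. Stk3, which encodes the Hippo pathway kinase MST2, was at 37.8, 31.3 and 24.6 against 45.3, 75.6 and 57.96 CPM, and Pdlim1 at 49.05, 100.2 and 56.8 against 106, 255 and 92.6 CPM.

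Beta globin mRNA was the widest of the lower values, and it marks erythroid cells. Hbb-bs in B cell sums was at or below 0.344 CPM in the nodes and at 15.95, 60.7 and 12.6 CPM in the spleens. The 4 erythroid genes tested in B cells summed to 5.30, 5.10 and 1.72 CPM in the nodes. In the spleens they summed to 27.5, 89.0 and 16.2 CPM. The 10 erythroid markers, tested or not, summed to 19.9, 13.8 and 22.4 CPM in B cells of the nodes. In B cells of the spleens these 10 summed to 41.7, 104 and 27.1 CPM. Hbb-bs was higher in free RNA than in B cells in 6 of 6 samples. Of the erythroid genes tested, 3 of 4 were lower in the node in 3 of 3 mice in B cells and 2 of 3 in T cells, and of the neutrophil genes 1 of 9 and 6 of 8. Over all genes tested these shares were 16.1% in B cells and 11.7% in T cells. The lists hold 8 erythroid and 11 neutrophil genes, and those not tested did not pass the expression filter. A gene near 0 in the nodes could pass it only through the spleens, so these counts are not read as a result. Rps27rt (log2 -1.71 ± 0.20, SE), which has a near-identical copy, is uncertain.

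In T cells 0 of 10374 genes (0%) passed the paired edgeR test at BH adjusted p under 0.05. At an unadjusted p under 0.05 there were 402 (3.88%), 154 higher and 248 lower in the node, and the smallest adjusted p was 0.101. DESeq2 called 21, 2 higher and 19 lower, and limma called 0. Over all genes, 1191 (11.5%) were higher in the node in 3 of 3 mice and 1210 (11.7%) were lower, every node was above every spleen for 419 (4.04%) and below for 523 (5.04%), and the median log2 difference was 0.01. For 2494 of the 10374 genes free RNA was above the T cell level in none of the 6 samples, and for the others in at least 1.

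Jun, the AP-1 subunit induced by T cell receptor signalling, had the smallest p of the higher T cell genes. It was at 49.8, 61.8 and 65.4 CPM in the nodes and 21.2, 16.8 and 20.4 CPM in the spleens, every node above every spleen by more than the spread within a tissue (log2 1.62 ± 0.22, SE; adjusted p = 0.331, edgeR). In 6 of 6 samples Jun was higher in free RNA than in T cells, and in the Eµ-PRMT5/TCL1 mice its difference was 0.14. The T cell receptor-induced list as a whole had 4 of 21 higher in 3 of 3 mice and 0 lower, beside 11.5% and 11.7% over all genes, with a median of 0.17 made of -0.51, -0.21 and 1.52 in mice 1, 2 and 3.

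Cd69, which holds activated T cells in tissue, was another of the 4, at 102, 184 and 343 CPM in the nodes and 71.1, 139 and 93.2 CPM in the spleens. Dusp2 was at 358, 507 and 821 against 239, 447 and 297 CPM, and Klf6 at 232, 315 and 265 against 179, 213 and 209 CPM. Mouse 3 had the widest difference for Cd69 and Dusp2, and the tissues overlapped for both.

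The median of naive and central memory genes was above 0 in mice 1 and 2 and below it in mouse 3. Of 17 tested, 5 were higher in 3 of 3 mice and 0 lower, beside 11.5% and 11.7% over all genes, and the median was 0.44 (1.20, 0.38 and -0.12 in mice 1, 2 and 3; -0.03 without mouse 1), with 0.38 in the Eµ-PRMT5/TCL1 mice. Il7r, the receptor for the survival cytokine IL-7, was at 516, 542 and 293 CPM in the nodes and 88.9, 299.6 and 606 CPM in the spleens. Tcf7, the factor TCF1 of naive and memory cells, was at 531, 460.3 and 205 against 161, 296 and 462 CPM. Both were higher in the nodes of mice 1 and 2 and lower in that of mouse 3. Actn1, an actin crosslinker of naive cells, was higher in 3 of 3, at 169, 70.9 and 33.2 against 17.1, 22.6 and 32.6 CPM, but by almost nothing in mouse 3.

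Cytotoxic effector genes were more often lower than higher in the node. Of 24 tested, 9 were lower in 3 of 3 mice, beside 11.7% over all genes, and 2 were higher, with a median of -0.48 (-1.59, -0.51 and 0.09 in mice 1, 2 and 3) and -0.20 in the Eµ-PRMT5/TCL1 mice. Gzma, granzyme A, was at 66.4, 4.15 and 4.65 CPM in the nodes and 345, 26.7 and 22.7 CPM in the spleens (log2 -2.42 ± 0.22, SE; adjusted p = 0.101, edgeR). Each spleen was above its node, while mouse 1 was high in both tissues, so that the groups overlapped. In the Eµ-PRMT5/TCL1 mice the Gzma difference was -0.50. In mouse 1 most Gzma was in CD4 cells, where it was at 578 CPM in the node and 555 CPM in the spleen, so that within CD4 cells of this mouse the level was not lower in the node. In CD8 cells Gzma was at 3.91, 0.590 and 5.26 CPM in the nodes and 36.7, 7.95 and 14.8 CPM in the spleens.

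The 8 markers of natural killer (NK) cells in T cell sums summed to 329.9, 248 and 298 CPM in the nodes and 749, 371 and 467 CPM in the spleens, every node below every spleen. The 3 of them that are also in the cytotoxic list (Eomes, Gzma and Prf1) made up 162 to 258 CPM in the nodes and 230 to 567 CPM in the spleens, and the other 5 summed to 72.2, 85.8 and 117 CPM in the nodes and 183, 107 and 237 CPM in the spleens, where the groups overlapped. Of these 5, Tyrobp, which myeloid cells also express, was at 18.99, 20.1 and 68.5 CPM in the nodes and 156, 54.6 and 138 CPM in the spleens, while Klrb1c, Klra8 and Klre1 were higher in the node in mice 1 and 2 and lower in mouse 3. Ncr1, which defines NK cells, was at 0.102 to 0.937 CPM in the nodes and 0.551 to 2.04 CPM in the spleens. The part of NK cells in the cytotoxic values was not tested.

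Fasl, the ligand that triggers death in target cells, was at 22.5, 43.8 and 49.6 CPM in the nodes and 95.3, 84.1 and 67.3 CPM in the spleens, and Prf1, perforin, at 16.6, 16.5 and 12.4 against 25.6, 21.5 and 20.4 CPM, both with every node below every spleen. Ccl5, a chemokine of effector cells, was at 10928, 8192 and 7414 against 17383, 12024 and 9286 CPM, lower in each node than in its own spleen. Gzmb, granzyme B, was mixed, at 6.04, 1.47 and 22.3 against 232, 42.7 and 16.1 CPM. Ctsw, cathepsin W of cytotoxic cells, went the other way, at 523, 583 and 445 CPM in the nodes and 249, 375 and 401 CPM in the spleens, with every node above every spleen.

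Checkpoint and exhaustion genes had the lowest median of the T cell lists other than the erythroid and neutrophil ones, -1.10, but the mice did not share it: -2.87, -1.14 and 0.58 in mice 1, 2 and 3. Of the 14, 2 were lower in 3 of 3 mice, a share near the 11.7% over all genes. These were Entpd1, the ectoenzyme CD39, at 3.74, 2.14 and 2.79 CPM in the nodes and 34.5, 10.7 and 5.21 CPM in the spleens, and Btla, an inhibitory receptor, at 3.23, 3.48 and 1.86 against 6.45, 5.79 and 3.63 CPM. Pdcd1, which encodes PD-1, was at 34.9, 28.9 and 31.9 CPM in the nodes and 708, 85.4 and 12.7 CPM in the spleens. Lag3 was at 52.1, 6.42 and 6.20 against 662, 28.7 and 3.17 CPM. The nodes were alike in Pdcd1 and the spleens ranged widely, with the spleen of mouse 1 highest and that of mouse 3 below its node.

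The share of T cells with a Pdcd1 UMI followed the same order. It was 6.55% (5.76 to 7.44), 4.36% (3.47 to 5.47) and 4.68% (3.43 to 6.36) in the nodes and 59.1% (57.1 to 61.02), 8.33% (6.68 to 10.4) and 2.69% (1.90 to 3.80) in the spleens, and 0% to 1.88% in B cells of the same samples. Thinned to 1500 UMIs per cell it was 3.25%, 2.57% and 3.17% in the nodes and 46.6%, 6.01% and 1.56% in the spleens. The spleen of mouse 1 was also the sample with 37.7% CD4 cells. Within CD8 cells alone Pdcd1 was at 5.86, 13.7 and 17.7 CPM in the nodes and 236, 49.3 and 10.7 CPM in the spleens, higher in the spleen in mice 1 and 2 and in the node in mouse 3, as over all T cells.

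Within CD8 cells naive and central memory genes had medians of 0.80, 0.41 and -0.27 in mice 1, 2 and 3, cytotoxic genes -1.17, -0.20 and -0.18, and checkpoint genes -2.28, -0.52 and 0.19. Mouse 3 lay nearest to 0 or on the other side of it in each of these lists. Within CD4 cells the medians had 1 sign in 3 mice, naive genes 0.99, 1.56 and 0.40, cytotoxic genes -0.98, -1.80 and -2.27, and checkpoint genes -1.15, -1.86 and -0.73. Mice 2 and 3 had only 39 and 18 CD4 cells in the node and 20 and 6 in the spleen, and 8 to 10 genes of a list were tested.

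Tnfrsf9, which encodes the costimulatory receptor 4-1BB, was lower in every node than in every spleen. It was at 14.5, 28.5 and 26.7 CPM in the nodes and 121, 61.7 and 63.3 CPM in the spleens (log2 -1.78 ± 0.42, SE; adjusted p = 1.00, edgeR). It was counted in the regulatory T cell list, of which 3 of 12 were lower in 3 of 3 mice and 2 higher, beside 11.7% and 11.5% over all genes. The median of that list was -0.54 (-1.26, -0.32 and 0.49 in mice 1, 2 and 3, and 0.32 without mouse 1). The other T cell lists were helper and follicular helper (8 tested, 0 higher and 2 lower in 3 of 3 mice, median -0.45, with -0.59, -0.09 and 0.72 in mice 1, 2 and 3 and 0.13 without mouse 1), CD8 and γδ genes (9, 1 and 1), interferon-stimulated genes (24, 1 and 4, median -0.26), proliferation (20, 0 and 5, median -0.22, with -0.98 in mouse 1 and 0.23 without it) and migration and residency (18, 3 and 4, median -0.07). Ribosomal protein genes had 7 of 32 higher and 0 lower (median 0.23, with 0.55, -0.09 and 0.27 in mice 1, 2 and 3). Oxidative phosphorylation had 0 higher and 13 of 32 lower (median -0.18, with -0.37, -0.14 and -0.02). In the Eµ-PRMT5/TCL1 mice these medians were 0.79 and 0.26, the second on the other side of 0. The counts of all these lists stand beside 11.5% higher and 11.7% lower over all T cell genes.

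**Figure D3:**
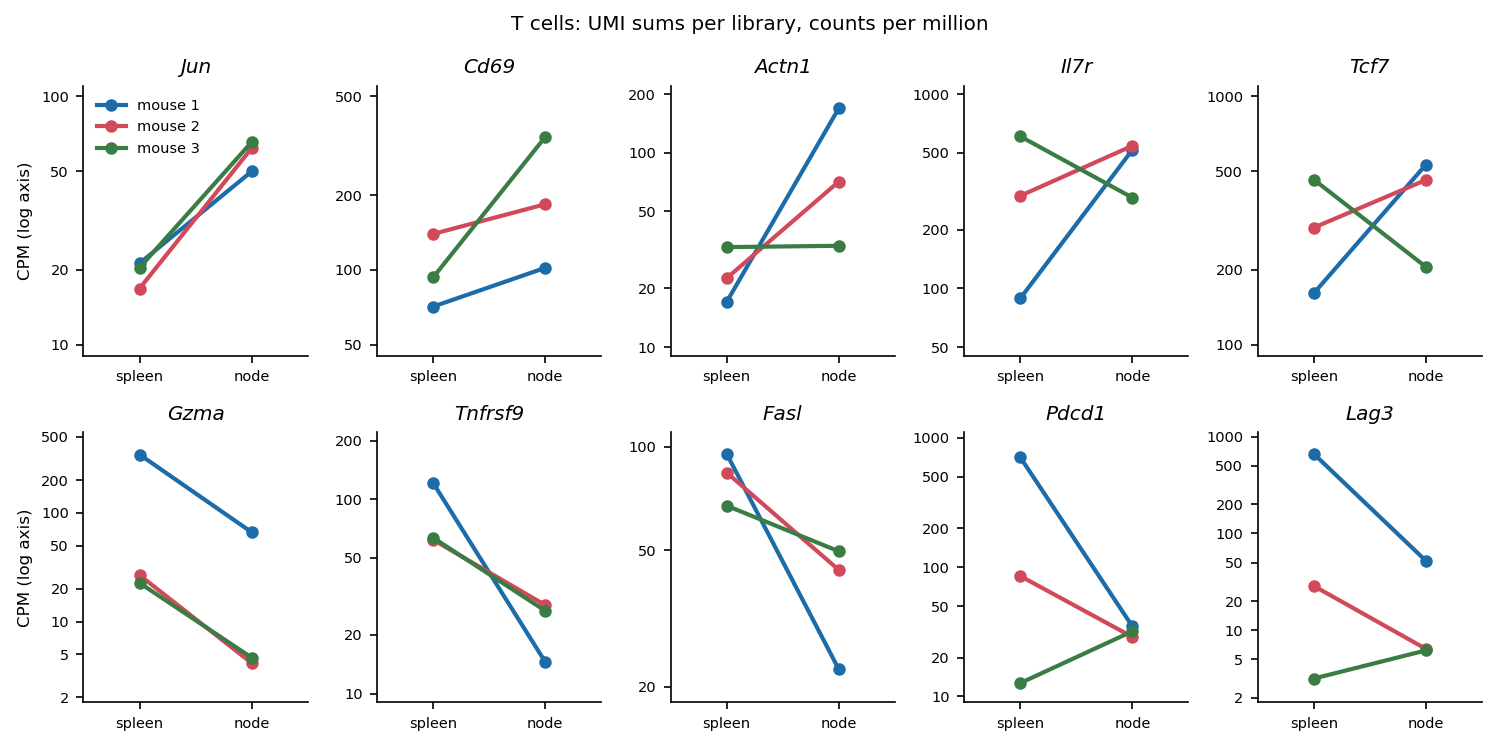
CPM of 10 genes in the UMI sums of T cells on a log axis, spleen at left and node at right, with 1 line per mouse. Jun, Cd69 and Actn1 go up in each mouse and Gzma, Tnfrsf9 and Fasl go down, while Il7r, Tcf7, Pdcd1 and Lag3 go 1 way in mice 1 and 2 and the other way in mouse 3.

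The 24 T cell genes taken by p-value had adjusted p of 0.331 to 1.00 among the higher and 0.101 to 1.00 among the lower. Rhob, a small GTPase of endosomes, was at 86.9, 135 and 81.8 CPM in the nodes and 25.8, 50.99 and 55.8 CPM in the spleens, and Hsph1, a heat shock protein, at 53.5, 95.3 and 92.7 against 32.1, 46.03 and 49.4 CPM. Fam177a was at 95.6, 53.9 and 69.7 CPM in the nodes and 58.4, 23.2 and 21.3 CPM in the spleens (log2 1.23 ± 0.26, SE), and it was among the higher B cell genes as well (log2 1.30 ± 0.21), with values of 1.37 and 1.35 in T and B cells of the Eµ-PRMT5/TCL1 mice. Inpp4b, a phosphoinositide phosphatase, was at 47.7, 26.4 and 26.96 against 21, 10.2 and 19.7 CPM.

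Among the lower genes were 2 of the GIMAP family of lymphocyte GTPases, Gimap7 at 70.8, 72.8 and 46.5 CPM in the nodes and 352, 144 and 118 CPM in the spleens and Gimap1 at 128, 112 and 72.2 against 241, 154 and 167 CPM, both with every node below every spleen. Il12rb2, a chain of the IL-12 receptor, was at 2.61, 26.6 and 17.4 against 10.7, 58.4 and 47.2 CPM. Lgals3, galectin 3, which macrophages make in quantity, was at 73.1, 25.3 and 105 CPM in the nodes and 519.6, 100.05 and 208 CPM in the spleens and was higher in free RNA in 6 of 6 samples. Hbb-bs was at or below 0.268 CPM in the nodes and at 93.8, 8.54 and 124 CPM in the spleens, and Hbb-bt was lower in each node as well.

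**Figure D4:**
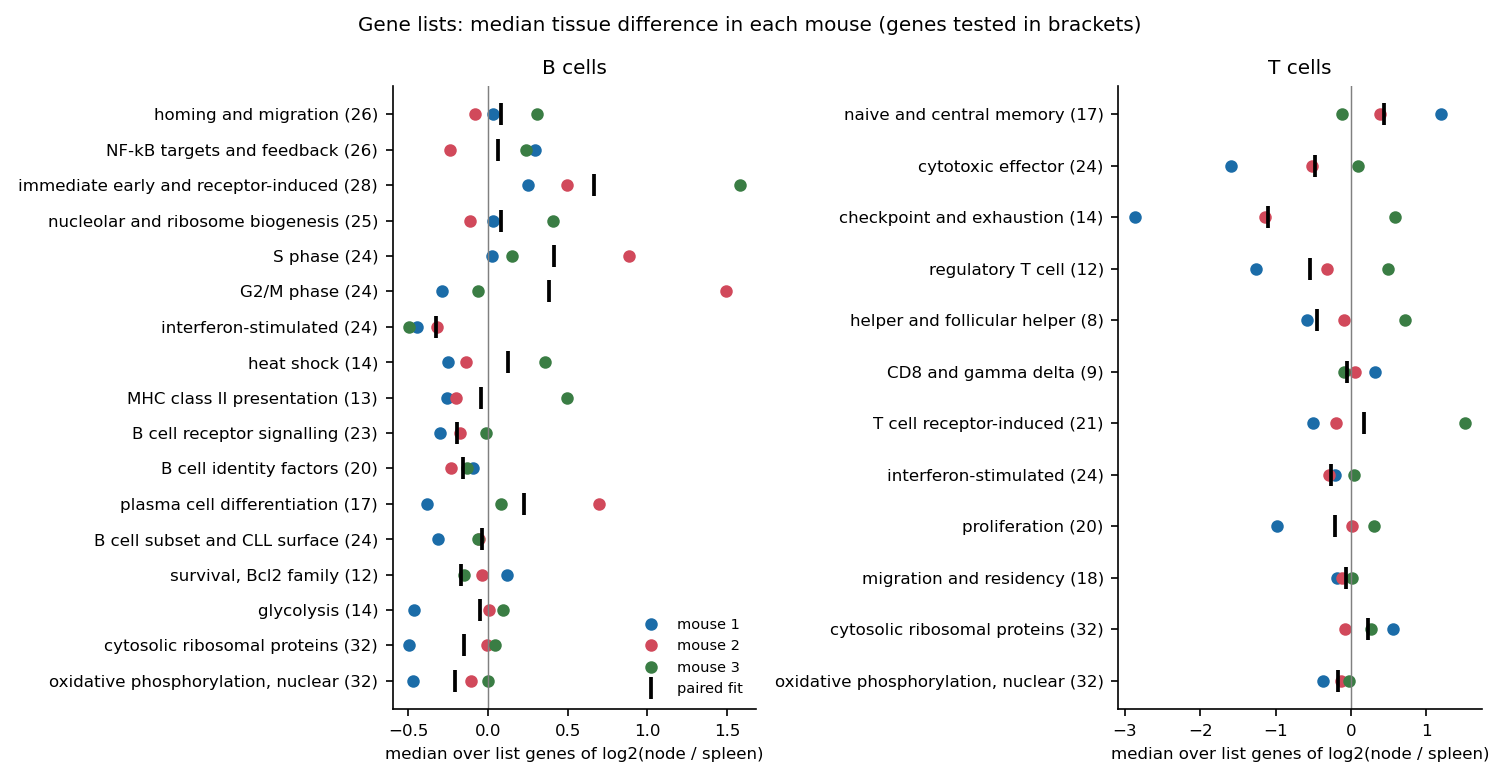
Median node minus spleen difference (log2) of each gene list in B cells and in T cells, with 1 dot per mouse, a black bar for the paired fit and the number of genes tested in brackets. Immediate early genes lie above 0 in 3 of 3 mice in B cells and interferon-stimulated genes below 0, while in T cells the checkpoint list spreads from -2.87 to 0.58.

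The differences of B and T cells of the same samples were set against each other in 1 fit with the sample as a block. Of 11872 genes, 2 (0.0168%) differed in their tissue difference at BH adjusted p under 0.05 (edgeR quasi-likelihood interaction), Hmox1 and Dnase1l3. Hmox1 was higher in the node in B cells and at 9.93, 5.49 and 6.20 CPM in the T cells of the nodes and 20.9, 1.65 and 14.1 CPM in those of the spleens, a difference of 3.68 ± 0.279 on the log2 scale (SE; adjusted p = 0.0284). Dnase1l3, a secreted DNase known from myeloid cells, was at 94.8, 48.3 and 61.3 CPM in B cells of the nodes and 39.2, 54.9 and 45.3 CPM in those of the spleens. In T cells it was at 4.35 and 0.669 CPM in the nodes of mice 1 and 2, at 0 UMIs in that of mouse 3 (up to 0.930 CPM allowed by 3 counts), and at 49, 6.89 and 0.227 CPM in the spleens (difference 4.17 ± 0.365, SE; adjusted p = 0.0392, edgeR). Free RNA held it at 17.7, 25.4 and 62.7 CPM in the nodes and 32.3, 56.6 and 37.8 CPM in the spleens. The 11 monocyte and macrophage markers in T cell sums summed to 16.4, 81.8 and 204 CPM in the nodes and 423, 120 and 554 CPM in the spleens. The part of free RNA and of myeloid cells in the Dnase1l3 difference was not tested. Leaving out mouse 1 gave Dnase1l3 an adjusted p of 0.199 and Hmox1 one of 0.0210. Egr1 had a difference of 2.03 between B and T cells and was not called (adjusted p = 0.101, edgeR).

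The Eµ-PRMT5/TCL1 mice were compared in 1 fit of 14 samples with an interaction of tissue and genotype. Of 12000 genes in B cells 0 (0%) and of 11175 genes in T cells 0 (0%) passed BH adjusted p under 0.05 (edgeR), with 226 and 188 at an unadjusted p under 0.05. DESeq2 called 1 gene in B cells, Adgrg1, and 0 in T cells. Examples of values side by side are Dusp4, with a log2 difference of 1.71 ± 0.17 (SE) here and 0.48 in the Eµ-PRMT5/TCL1 mice, Hmox1 with 3.42 ± 0.42 and 1.17, Hspb1 with -1.93 ± 0.21 and 0.15, and Egr1 with 2.06 ± 0.58 and 1.36. None of these is shown to differ between the genotypes.

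Some genes were near 0 in the B cells of both tissues of 1 mouse. The rule, chosen after values were seen, took genes at 2 CPM or less in both B cell sums of a mouse and at 15 CPM or more in those of both other mice, and it found 4 genes in mouse 1, 4 in mouse 2 and 0 in mouse 3. The 4 of mouse 1 (Mcts2, Kifc3, Jup and Syngr1) lay on chromosomes 2, 8, 11 and 15. The 4 of mouse 2 lay together at chr9:7184520-7873186 (GRCm38, GENCODE vM21), a stretch of 688.667 kb with 14 annotated genes, of which these 4 were at 15 CPM or more in the other mice.

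They were Dcun1d5, a factor for cullin neddylation, Tmem123, a membrane mucin, and Birc2 and Birc3, which encode the ubiquitin ligases cIAP1 and cIAP2 that hold the noncanonical NF-κB pathway in check. In the B cells of mouse 2, Dcun1d5 was at 0.531 CPM in the node and 1.09 CPM in the spleen, Tmem123 at 1.38 and 0.892, Birc2 at 0.106 and 0.195, and Birc3 at 0.319 and 0.446. Birc3 in B cells of mouse 1 was at 117 CPM in the node and 89.9 CPM in the spleen, and in those of mouse 3 at 70.9 and 97.5 CPM. T cells of mouse 2 held it at 81.8 CPM in the node and 73.9 CPM in the spleen. The share of B cells of mouse 2 with a Birc3 UMI was 0.297% (0.101 to 0.871) in the node and 0.199% (0.111 to 0.356) in the spleen, and that of its T cells was 29.5% (27.4 to 31.8) and 24.3% (21.6 to 27.3).

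Dync2h1, whose level was 6.44 to 9.28 CPM in B cells of mice 1 and 3, was at 0 UMIs in the node of mouse 2 (up to 0.319 CPM allowed by 3 counts) and at 0.0836 CPM in its spleen. It lies just before the stretch. The nearest gene before it at level in all mice, Aasdhppt, ends at 4309471 and was at 15.8 and 18.7 CPM in B cells of mouse 2, and no gene at that level was found in the 3 Mb after. The cause of the near-0 levels was not tested, and no DNA was measured.

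Genes of the Y chromosome also set B cells apart from T cells within a mouse, alike in both tissues. Their summed level in mouse 2 was 0.425 CPM in B cells of the node and 0.669 CPM in those of the spleen, against 128 and 136 CPM in T cells. In mouse 3 it was 18.5 and 10.97 CPM in B cells and 169.8 and 137 CPM in T cells. Mouse 1 had 0 UMIs of these 4 genes in both classes and both tissues, which allows up to 1.99 CPM in its node B cells, the shallowest of its sums. Xist, the RNA of the inactive X chromosome of females, was at 227 to 443 CPM in the sums of mouse 1 and at most 0.0574 CPM in those of mice 2 and 3, so mouse 1 could not show such a difference.

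**Figure D5:**
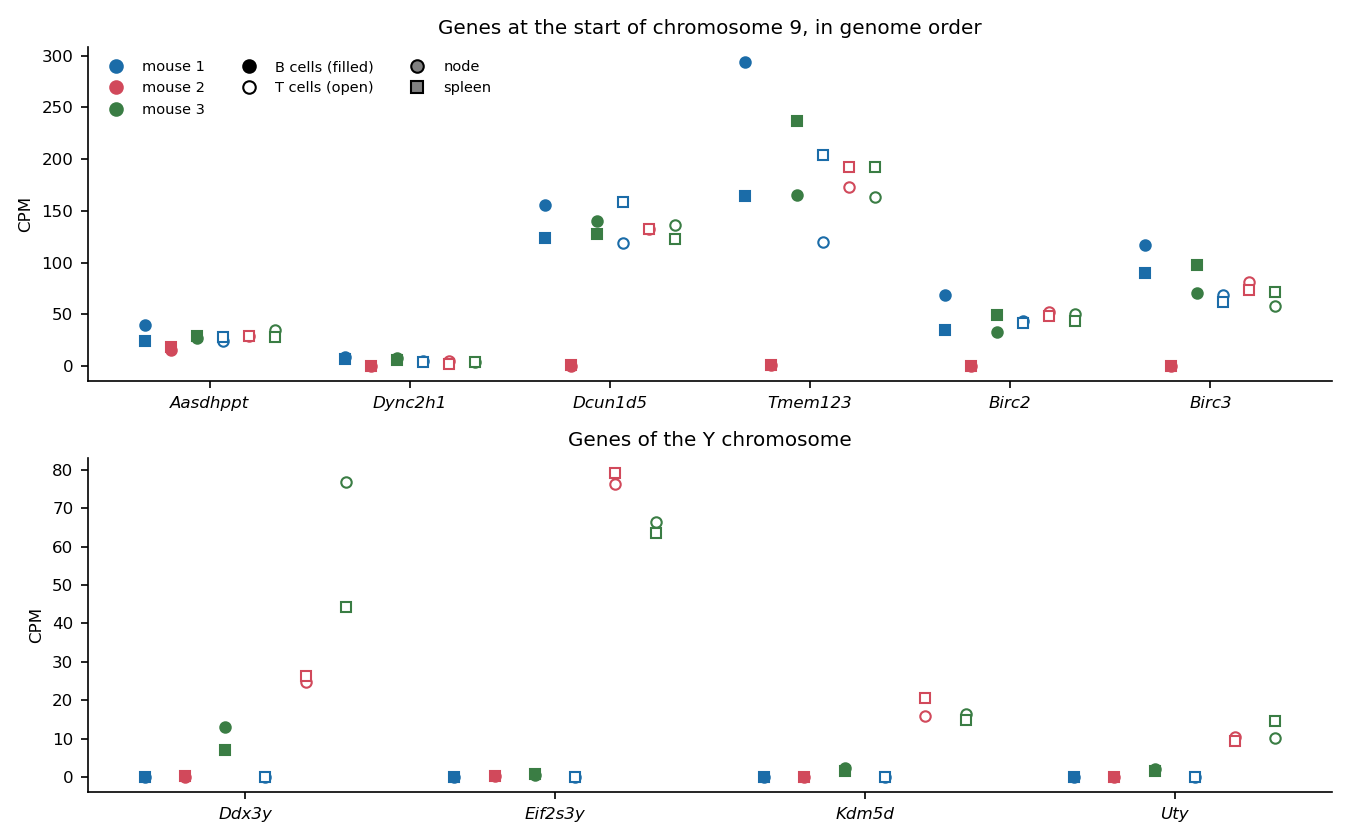
CPM in B cells (filled) and T cells (open) of node (circle) and spleen (square), coloured by mouse. The upper panel shows 6 genes of chromosome 9 in genome order and the lower one 4 genes of the Y chromosome. In B cells of mouse 2 Dync2h1, Dcun1d5, Tmem123, Birc2 and Birc3 lie near 0 in both tissues while its T cells lie with those of the other mice, and the Y genes of mice 2 and 3 are lower in B cells than in T cells.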

How the data were processed

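Single-cell RNA-sequencing libraries of unselected live cells from LN and spleen were made by the authors with the 10x Chromium 3′ v2 kit and read to 75 bases. The deposited matrices hold unnormalized UMI counts of 31053 genes for 737280 possible barcodes. The submitters' processing notes name Cell Ranger 2.0.1 and Seurat 2.2.1, while the matrix headers name version 3.1.0. The reference need not count the human transgene, so TCL1 was not measured here. Samples were grouped and paired by the titles, with the animal as a block, since the same animal gave both tissues. Deviations of the node and spleen of 1 mouse from their tissue means were correlated at 0.593, 0.696 and 0.421 in B cells of mice 1, 2 and 3, and at 0.250, 0.301 and -0.0975 in T cells. The mice were separate animals, and each gave 1 sample per tissue.

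UMI sums were tested with edgeR 4.0.16 (TMM, filterByExpr, robust quasi-likelihood fit, BH adjustment over all genes, threshold 0.05) in R 4.3.3, and shares with an exact sign-flip permutation test. Interactions of tissue with cell class and with genotype were fitted in the same way. Alternatives were DESeq2 1.42.0, limma 3.58.1 on log2 of the mean UMIs per 10000 per cell with pseudocount 0.05, RLE size factors, a filter of 10 UMIs over 6 libraries, minimums of 500 and 3000 UMIs, subsets of cells and leaving out each mouse. Doublets were left in the main sums. Scrublet in scanpy 1.11.5, with 0.8% expected per 1000 cells, marked 1 to 3 barcodes in 4 libraries and 237 and 83 in the spleens of mice 1 and 2, so its automatic threshold did not work in the 4, and an alternative that left out the highest scores was chosen after seeing the data. Genes were named by a rule: for each class the 12 of smallest p per direction with the same sign in 3 mice and a mean of at least 20 CPM in a tissue, without receptor segment genes, beside members of the lists. The members and lists were chosen with earlier results of these data known. Tests were tried on simulated data first. Raw counts limit precision most in the 212 B cells of the node of mouse 1. Some genes that the rule or the lists hold are not reported here.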

Additional observations from a re-analysis of the deposited data

Results flagged for a closer look

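Hmox1 and Dnase1l3 differed between B and T cells of the same samples in their node minus spleen difference, by the interaction test across all genes (edgeR quasi-likelihood, BH adjusted p = 0.0284 and 0.0392). The tissue difference in B cells minus that in T cells was 3.68 for Hmox1 (3.42 in B cells and -0.38 in T cells, log2) and 4.17 for Dnase1l3 (0.42 and -3.46). Without mouse 1 the Dnase1l3 difference was 3.29 with an adjusted p of 0.199 and the Hmox1 difference kept its call at 0.0210. T cells of the spleens held Dnase1l3 at 49.0, 6.89 and 0.227 CPM, and free RNA of the spleens held it at 32.3, 56.6 and 37.8 CPM. In mouse 3 the T cells had 0 UMIs of it in the node and 1 in the spleen. The part of free RNA was not tested.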

How the results depend on the processing

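The paired main test called 0 genes in B cells and 0 in T cells, and other settings moved these counts. In B cells the count was 92 with DESeq2, 38 with a filter of 10 UMIs over the 6 libraries, 3 with limma, 2 with immunoglobulin genes left out (Dusp4 and Hist1h2ap), 2 in the leading clone only (Hist1h2ap and Hspb1), and 8 to 106 when 1 mouse was left out (37 without mouse 1, 8 without mouse 2 and 106 without mouse 3). In T cells it was 21 with DESeq2, 3 with the 10 UMI filter (Ltf, Hbb-bs and Gzma), 17 of 2476 tested in CD4 cells only, and 4 to 46 when 1 mouse was left out (10, 4 and 46 without mice 1, 2 and 3). It was 0 in both classes without the replicate block, that is without the pairing by mouse, with RLE size factors, without Scrublet calls or the highest scores, at 500 or 3000 UMIs, with 14 libraries in the fit, and with genes higher in free RNA left out. The difference between B and T cells was called for 2 genes, for 0 without the replicate block (Hmox1 3.90 and Dnase1l3 3.59, both adjusted p = 1.00, edgeR), and for 6 to 86 with a mouse left out (6, 24 and 86 without mice 1, 2 and 3). The genotype difference in B cells was called for 1 gene with DESeq2 and for 0 otherwise, also without the replicate block, and in T cells for 0 throughout.

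Leaving out a mouse moved the mean share differences to 16.4 to 39.4 points (T cells), -29.5 to -5.05 (B cells), 3.56 to 8.45 (Jchain-high), -8.06 to 0.981 (B and T transcripts together), -1.98 to 28.0 (CD8), -14.7 to 0.904 (CD4) and -14.9 to 2.05 (leading clone). The last 4 reversed without mouse 1, at 0.981, -1.98, 0.904 and 2.05, and the clone difference was 7.69 with the spleen of mouse 4 added and no pairing. Of the 24 named B cell genes, 365 values over the alternatives had the main direction and 71 passed the threshold. Of 347 in T cells 346 had it and 25 passed, and Lgals3 reversed in CD4 cells, to 0.30. The genes were chosen for 1 sign in 3 mice and a small p in the same sums. Their shared direction over the alternatives is therefore no independent support. Of 520 medians of lists over the alternatives, 30 differed from the main value by more than 1 SD of the medians of the 3 mice, and 28, in 16 of 33 lists, had the opposite sign. Among lists further from 0 these were, without mouse 1, naive (-0.03), regulatory T cell (0.32), helper (0.13) and proliferation genes (0.23) of T cells, without mouse 2 G2/M (-0.18) and plasma cell genes (-0.28) of B cells, and without mouse 3 the T cell receptor-induced list (-0.42). That list also reversed in CD8 cells only and in CD4 cells only (-0.10 in each), and proliferation did in CD4 cells only (0.09). The immediate early median of B cells ranged from 0.23 to 0.92 and was 0.30 without mouse 3, that of S phase genes was 0.13 without mouse 2, and those of cytotoxic and checkpoint genes of T cells were -0.14 and -0.18 without mouse 1. The causes were not tested. With 3 mice the exact test of a share cannot pass 0.05, and the 212 B cells of the node of mouse 1 limit depth there.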

Other observations

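Some T cells of mouse 1 held transcripts of Gcg, the preproglucagon gene known from the gut and the pancreatic islets. In the spleen of mouse 1, 423 of 2404 T cells had at least 1 Gcg UMI, 5997 UMIs in all and up to 286 in 1 cell, and in its node 32 of 3313 had one, 239 UMIs in all. B cells with a Gcg UMI made up 0.552% in that spleen, against 17.6% of its T cells. Pdcd1 was read in 90.8% of the spleen T cells with Gcg and in 52.3% of those without, and in the node in 56.3% and 6.07%. Cd4 was read in 74.2% of the spleen cells with Gcg and 33.9% of those without, and in 24 of 32 and 8.47% in the node, while Cd8a or Cd8b1 was read in 3.31% and 46.4% in the spleen and in 12.5% and 85.6% in the node. The cells with Gcg were deeper, with a median of 5560 UMIs against 4504 in the spleen and 7148.5 against 5767 in the node. In the spleen of mouse 2, 3 of 876 T cells had a Gcg UMI, 71 UMIs in all and up to 38 in 1 cell, and the T cells of its node and of both tissues of mouse 3 had 0. These cells were found after values were seen and are given as a description with no test.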
